A study of Mus musculus with 5 samples.

Results

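The members described here were 102 genes of oxidative phosphorylation in T cells sorted from mouse brain. They were taken by gene symbol from the 52542 gene rows of the count files: Nduf rows for complex I and its assembly factors (Ndufa4 and Ndufa4l2, now placed in complex IV, were counted there), Uqcr rows for complex III, Cox4 to Cox8 rows for complex IV, Atp5 rows for complex V (the ATP synthase), and the protein-coding genes of the mitochondrial genome. Of these, 89 were nuclear and 13 were mitochondrially encoded. Atp5sl, named Dmac2 in the GENCODE M21 annotation, was counted under complex V by its symbol alone. A further 7 rows named as pseudogenes, with 124 counts together, were left out.

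Cells came from 5 mice of strain Grl1loxP/loxP, in which the glucocorticoid receptor gene is flanked by loxP sites. Mice 207, 208 and 215, aged 18, 18 and 19 weeks, received TAT-CRE, a cell-permeant Cre recombinase, into the brain ventricles, and mice 216 and 218, aged 19 and 16 weeks, received PBS. The series describes the injection as a knockdown in the choroid plexus, a tissue left out of the dissection. All 5 mice, controls included, then had 2 days of electric foot shocks, so there was no unstressed group. On day 14 CD45+ CD11b- TCRβ+ cells of the brain parenchyma were sorted singly into plates, each mouse on a plate and amplification batch of its own, so that mouse and plate cannot be told apart. Transcripts were counted as unique molecular identifiers (UMIs, 1 per captured molecule), and 1482 of 1900 wells sorted with 1 cell were kept, with 311, 303 and 298 cells from the TAT-CRE mice and 296 and 274 from the PBS mice.

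The respiratory chain passes electrons from NADH and succinate to oxygen and pumps protons across the inner mitochondrial membrane, and complex V uses the returning protons to make ATP. Complexes I, III, IV and V are built from subunits of both genomes, so cells must make nuclear and mitochondrial transcripts for the same machines. T cells raise respiratory capacity as they become memory cells.

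Levels are given in CPM, UMIs per 1000000 UMIs outside the ERCC spike-ins and 4 ribosomal RNA genes, not divided by gene length because the method tags each transcript once. Median depth was 993 to 2660 UMIs per cell over the 5 mice, lowest in mouse 208 and highest in mouse 218. The list of T cell markers had all 8 genes detected and summed to 8004 to 9528 CPM, while all 4 neuron markers were at 0 and microglia markers had 2 of 5 detected at 3.27 to 156 CPM (P2ry12, Tmem119 and Sall1 at 0). Other lists were low: oligodendrocyte genes had 3 of 4 detected at 146 to 238 CPM (Mog at 0), endothelial genes 1 of 4 at 36.0 to 272 (Cldn5, Flt1 and Kdr at 0), and the CD11b-positive monocyte or macrophage list at most 6.54 (Lyz2, Csf1r and Cd14 at 0). Astrocyte and erythroid genes reached at most 6.54 and 9.97 CPM. The 3 NK cell genes, all detected, did not overlap between groups, at 3.27 to 74.6 CPM after TAT-CRE and 155 to 233 after PBS. Of the B cell genes given here, Cd79b, Ms4a1 and Ighm were detected and Cd79a was at 0; their sum did not overlap between groups either, at 176 to 281 CPM after TAT-CRE and 130 to 168 after PBS. For comparison, 18.7% of all 6341 genes tested did not overlap between groups, and many marker lists were looked at. These differences were not tested, nor was the part of these lists in the results. Nr3c1, the glucocorticoid receptor gene, measured 323, 196 and 301 CPM after TAT-CRE and 352 and 395 after PBS (log2 fold change -0.44, SE 0.29, edgeR adjusted p = 0.999), which in parenchymal T cells does not check a knockdown in the choroid plexus.

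For 4 mitochondrially encoded members, nuclear near copies, annotated as unprocessed pseudogenes on chromosomes 1 and 2, had UMIs in rows of their own. Which of the 2 genes those UMIs came from was not tested. Parts of the 2 most affected genes are shown because the sequences decide what the counts can mean. The first pair is 100 bases of mt-Co1 (complex IV, chrM:6383-6482, plus strand) and of its near copy Gm29216 (chr1:24616096-24616195, minus strand), both read from GENCODE M21 transcripts on GRCm38, with the differing bases in capitals. The second pair is the last 100 aligned bases of mt-Co3 (complex IV, chrM:9290-9389, plus strand) and of Gm28437 (chr1:24613189-24613288, minus strand).
mt-Co1: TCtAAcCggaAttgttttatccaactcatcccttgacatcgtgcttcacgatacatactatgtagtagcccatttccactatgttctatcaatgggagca
Gm29216: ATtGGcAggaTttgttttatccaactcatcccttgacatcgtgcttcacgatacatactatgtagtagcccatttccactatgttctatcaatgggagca
mt-Co3: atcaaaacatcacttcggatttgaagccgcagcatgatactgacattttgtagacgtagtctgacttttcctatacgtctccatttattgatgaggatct
Gm28437: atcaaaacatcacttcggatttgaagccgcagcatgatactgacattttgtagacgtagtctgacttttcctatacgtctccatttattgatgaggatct

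Gm29216 is annotated over 492 bases that align to the end of mt-Co1. All 6 differing bases lie within its first 13 bases, and the 479 bases after them are identical. Gm28437 is identical to mt-Co3 over all 783 aligned bases. A tag from these stretches fits the mitochondrial gene and its copy equally well.

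mt-Co1 had 6845 UMIs and Gm29216 had 6705. The copy's share of the pair was 50.2%, 50.6% and 49.3% after TAT-CRE and 48.7% and 49.0% after PBS, an even split in every library. mt-Co3 had 555 UMIs and Gm28437 had 4496, with copy shares of 87.6%, 91.7% and 93.9% after TAT-CRE and 85.4% and 80.6% after PBS. The row named mt-Co3 thus held the minor part of the pair in every mouse. For mt-Nd2 and mt-Co2 the copies Gm13339 and Gm13341 had 728 and 148 UMIs, 9.76% and 11.3% of their pairs. Together these 4 copy rows had 12077 UMIs, equal to 19.6% of all UMIs of the mitochondrially encoded members, and the levels of mt-Co1 and mt-Co3 given here are therefore uncertain.

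**Figure D1:**
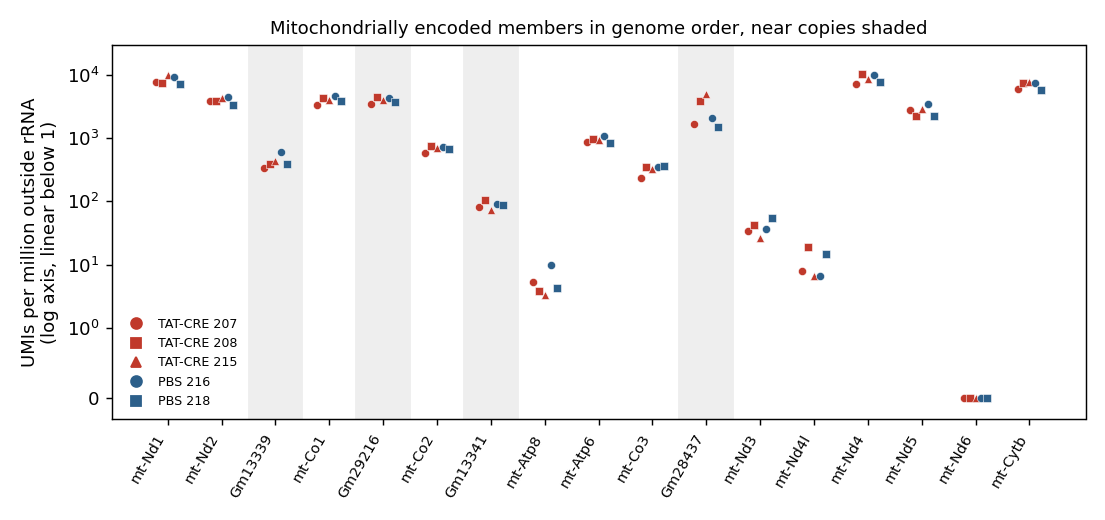
CPM (log axis, linear below 1) of the 13 mitochondrially encoded members in the order of the mitochondrial genome, one point per mouse, with rows of nuclear near copies on grey. Gm29216 lies level with mt-Co1 in each mouse, Gm28437 lies above mt-Co3 in each mouse, and mt-Nd6 is at 0.

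The mitochondrially encoded members were detected in far more molecules than the nuclear ones. The 13 members had 61687 UMIs, 3.60% of all UMIs outside ribosomal RNA, and the 89 nuclear members had 21284, or 1.24%. In sums, the mitochondrially encoded members measured 32700, 37712 and 39461 CPM after TAT-CRE and 41371 and 32081 after PBS. The nuclear members measured 12944, 11630 and 12362 CPM after TAT-CRE and 12973 and 12154 after PBS. The nuclear sum varied less between mice than the mitochondrial sum.

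The ratio of mitochondrial to nuclear member UMIs was 2.53, 3.24 and 3.19 after TAT-CRE and 3.19 and 2.64 after PBS. The lower 2 values were those of the mice with the deepest libraries, 207 and 218, at medians of 1953 and 2660 UMIs per cell. After every cell was thinned to 400 UMIs the ratios were 2.59, 3.23, 3.67, 3.44 and 2.74 in the same order of mice, with mice 207 and 218 again lowest. The part of library depth and of plate in the ratio was not tested.

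In 20 wells sorted with no cell, nuclear members made up 1.30% of 617 UMIs outside ribosomal RNA (exact Clopper-Pearson 95% interval 0.56% to 2.54%, counting error only) and mitochondrially encoded members 4.70% (3.17% to 6.68%). These shares were near those of the cells. The 20 empty wells held 8 nuclear and 29 mitochondrial member UMIs, against 21284 and 61687 in 1482 kept cells, totals not scaled per well. Kept cells had medians per mouse of 8 to 18 nuclear and 28 to 47 mitochondrial member UMIs per cell.

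Among the mitochondrially encoded members, mt-Nd4 and mt-Nd1 of complex I led in the rows as deposited. The 3 highest, mt-Nd4, mt-Nd1 and mt-Cytb, carried 65.0% of the UMIs, and the 6 highest 94.5%, with the rows as deposited and no copy row added. mt-Nd4, a proton-pumping subunit of complex I, measured 7199, 10314 and 8491 CPM after TAT-CRE and 9784 and 7601 after PBS. mt-Nd1, the subunit next to the ubiquinone site, measured 7746, 7507 and 9861 CPM after TAT-CRE and 9358 and 7147 after PBS. For both genes the groups overlapped, and the mean over the 5 mice was 8678 ± 1349 (SD) and 8324 ± 1206.

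mt-Cytb, the cytochrome b of complex III, measured 6000, 7330 and 7769 CPM after TAT-CRE and 7505 and 5851 after PBS. mt-Co1, the catalytic subunit of complex IV, followed at 4044 ± 443 (SD, n = 5), level with mt-Nd2 at 3994 ± 465. mt-Nd5 reached 2734 ± 487 and mt-Atp6, the proton channel subunit of complex V, 936 ± 101. With Gm29216 added, the mt-Co1 pair had 13550 UMIs and measured 8015 ± 841 CPM, above mt-Cytb (6891 ± 897) and near mt-Nd1. The order from mt-Nd4 to mt-Nd1 and from mt-Co1 to mt-Nd2 did not differ beyond the spread over mice.

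mt-Co2, which holds the copper site that accepts electrons from cytochrome c, measured 684 ± 63.1 CPM (SD, n = 5) and mt-Co3 325 ± 52.5. With their copy rows added these were 771 ± 70.2 and 3151 ± 1561, so the place of mt-Co3 in the order depends on the copy row. Far below these came mt-Nd3 with 69 UMIs in all, mt-Nd4l with 19 and mt-Atp8 with 9. mt-Nd6, the one member on the light strand of the mitochondrial genome, had 0 UMIs in 1482 cells, which allows up to 1.75 CPM and up to 0.202% of cells with a UMI. mt-Nd4l and mt-Atp8 lie on shared messages with mt-Nd4 and mt-Atp6, so their 3′ tags can fall in the longer partner. The share of each transcript's end found in other genes was 0% for mt-Nd4 and mt-Nd1 and 13.3% for mt-Cytb. It was 98.9% to 100% for mt-Atp6, mt-Co2, mt-Co3, mt-Nd3 and mt-Nd4l. Other members went the other way: it was 100% for mt-Co1, and only 7.75% for mt-Nd6 and 8% for mt-Atp8. The part of shared sequence in this order was not tested.

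Summed by complex with the rows as deposited, mitochondrial transcripts exceeded nuclear ones in complexes I, III and IV in each of the 5 mice. In complex V they fell below them in each mouse. In complex I the 7 mitochondrial members summed to 23780 ± 2767 CPM (SD, n = 5) and the 36 nuclear ones to 4296 ± 127. In complex III mt-Cytb alone measured 6891 ± 897 against 1233 ± 86.7 for 8 nuclear members. In complex IV the sums were 5053 ± 543 for 3 mitochondrial and 2797 ± 270 for 20 nuclear members. With the copy rows of mt-Co1, mt-Co2 and mt-Co3 added, the mitochondrial sum of complex IV was 11937 ± 2091. In complex V the 2 mitochondrial members summed to 941 ± 103 and the 17 nuclear members to 3910 ± 273. The 17 were taken by symbol and include Atp5sl (34 UMIs), named Dmac2 in GENCODE M21. The 8 Ndufaf genes, which encode assembly factors of complex I and no subunit, summed to 176 ± 64.5.

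**Figure D2:**
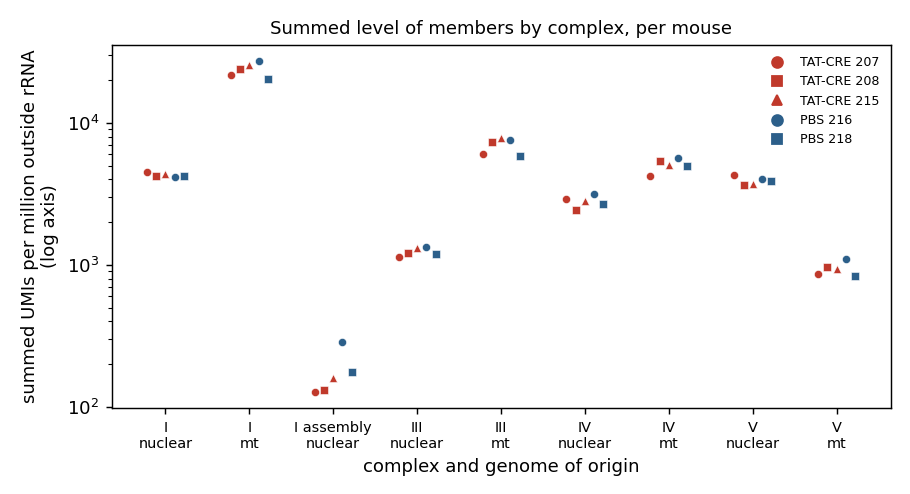
Summed CPM (log axis) of the members of each complex, split by genome of origin, one point per mouse. The mitochondrial sum lies above the nuclear sum for complexes I, III and IV and below it for complex V in all 5 mice.

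Nuclear members were each low. The highest were Uqcrh, the hinge subunit of complex III, Cox4i1, a regulatory subunit of complex IV, and Atp5h, a stalk subunit of complex V, at 465 ± 59.9, 460 ± 56.2 and 454 ± 49.7 CPM (SD, n = 5). Uqcrh measured 482, 543 and 490 CPM after TAT-CRE and 419 and 393 after PBS, and the groups did not overlap. Atp5b, the catalytic β subunit of the synthase, measured 528, 493 and 262 CPM after TAT-CRE and 365 and 461 after PBS. Atp5a1, the α subunit, measured 530, 285 and 389 CPM after TAT-CRE and 561 and 268 after PBS. The α and β subunits, which share a ring in the enzyme, thus overlapped between groups and spread widely between mice.

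Of the 20 nuclear members of highest mean level, 9 belonged to complex V by symbol (Atp5h, Atp5b, Atp5a1, Atp5g3, Atp5f1, Atp5j2, Atp5e, Atp5c1 and Atp5d), 6 to complex IV (Cox4i1, Cox6a1, Cox7a2l, Cox6c, Cox7b and Cox5a), 4 to complex I (Ndufa6, Ndufa3, Ndufa2 and Ndufa13) and 1 to complex III. These 20 carried 55.9% of nuclear member UMIs. Their coefficient of variation over the 5 mice had a median of 17.3% and ran from 4.13% for Ndufa3 to 33.4% for Atp5a1. Even Uqcrh had a UMI in only 19.8% of cells, against 87.7% for mt-Nd4, so single cells could not be ranked by a nuclear member. Over all nuclear members, 61 had over 100 UMIs, 21 had 1 to 100 and 7 had 0.

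**Figure D3:**
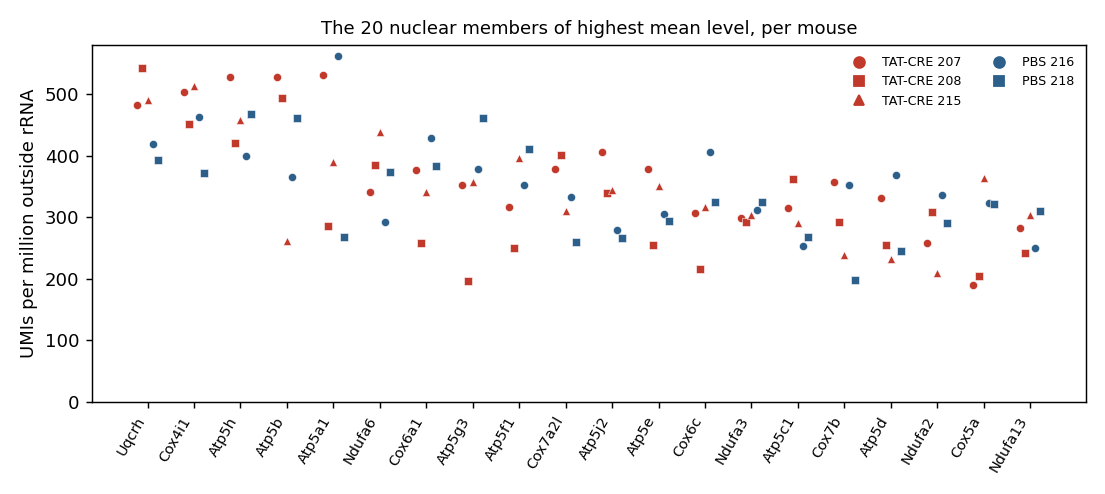
CPM of the 20 nuclear members of highest mean level, one point per mouse. Uqcrh, Atp5j2 and Atp5c1 are higher in each TAT-CRE mouse than in both PBS mice, Cox6a1, Cox6c, Atp5g3 and Ndufa3 are lower, and the others overlap. Of all genes tested, 18.7% did not overlap between groups.

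The complex IV transcripts were those of the ubiquitous isoforms. Cox4i1 had 777 UMIs, Cox6a1 621, Cox6b1 401, Cox7b 482, Cox8a 316 and Ndufa4 90, whereas Cox4i2, Cox6a2, Cox6b2, Cox7b2, Cox8b, Cox8c and Ndufa4l2 had 0 each. A count of 0 allows up to 1.75 CPM and up to 0.202% of cells with a UMI. Cox7a2 had 348 UMIs and its muscle isoform Cox7a1 had 1. Among the 3 genes for the same c subunit of the synthase, Atp5g3 had 623 UMIs, Atp5g1 117 and Atp5g2 12.

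Low counts of some nuclear members went with near copies elsewhere in the genome. Cox7c had 37 UMIs, while its processed pseudogenes Gm10012 and Gm12338 had 124 and 88. Atp5l had 48 UMIs against 131 for its pseudogene Gm10221, Ndufs5 had 11 against 48 for BC002163, and Atp5g2 had 12 against 27 for Gm10175. Atp5h kept 787 UMIs beside 302 under Gm10250. The 6 nuclear members that shared 50% or more of the last 300 bases with another gene had a median of 42.5 UMIs, against 145.5 for the 66 members that shared under 5%. The levels of these members are uncertain, and the split between gene and copy was not tested.

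The promoters of nuclear members were matched in RefSeq (GRCm38.p6) for 74 of 89 genes, from 250 bases before to 50 after the start. The letters CGCATGCG, the core of the site bound by nuclear respiratory factor 1 (NRF1), lay in 11 of them (14.9%) against 2.07% of 27025 genes. The YY1 motif AAGATGGC lay in 16.2% against 3.19% and the ETS motif CCGGAAGT, as bound by GABP, in 6.76% against 4.31%, each searched on both strands. These are letter matches, the comparison was not matched for base composition, and no binding was measured.

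The comparison of TAT-CRE with PBS mice asks whether injection changed the T cells found in the stressed brain. No member passed the test. In edgeR's quasi-likelihood test on counts summed per mouse, 81 members passed the filter on low counts, and 0 had an adjusted p under 0.05, as did 0 of all 6341 genes tested (0%). At an unadjusted p under 0.05 there were also 0 members, against 3.77% of all genes, and DESeq2 called 0 members. The median log2 fold change was -0.03 for 71 nuclear members, -0.04 for 10 mitochondrial members and 0.00 for all genes. In simulated counts of this design, 80.3% of genes changed by 3 on the log2 scale were called. The shares were 29.9% of those changed by 2 and 5.97% of those changed by 1. These rates are averages over genes drawn at random from those tested, with a common dispersion. They were not obtained for members of high counts, which had small SE: 0.19 for mt-Nd4 and mt-Nd1 and 0.18 for mt-Cytb. For an average gene, smaller changes were mostly not detectable.

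The groups did not overlap for 11 of the 81 members (13.6%), against 18.7% of all genes. The members higher in every TAT-CRE mouse (6.17%, against 9.29% of all genes) were Uqcrh, Atp5c1, Atp5j2, Ndufa12 and Ndufv1, and those lower (7.41%, against 9.38%) were Cox6a1, Cox6c, Atp5g3, Atp5sl, Ndufa3 and mt-Co3. The smallest unadjusted p among members was 0.112, for Cox7a2, a complex IV subunit, with a log2 fold change of -0.69 (SE 0.40). Next came Ndufb6 at 0.82 (SE 0.50), the assembly factor Ndufaf4 at -1.16 (SE 0.72), Ndufa12 at 0.75 (SE 0.48) and Ndufv1, the flavin-binding subunit, at 1.18 (SE 0.76), each with an adjusted p of 0.999. None of these differences passed the test, and both directions were present within complex I.

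The sums over all nuclear and all mitochondrial members overlapped between groups. Mean nuclear levels were 12312 ± 658 CPM after TAT-CRE (SD, n = 3) and 12563 ± 579 after PBS (SD, n = 2), and mean mitochondrial levels 36624 ± 3509 and 36726 ± 6569. The ratio was 2.99 ± 0.40 and 2.91 ± 0.39. By complex, the groups did not overlap for the nuclear subunits of complex I, at 4475, 4239 and 4381 CPM after TAT-CRE against 4179 and 4206 after PBS, a narrow gap. Nor did they for the Ndufaf assembly factors, at 128, 131 and 160 CPM after TAT-CRE against 286 and 176 after PBS, from 300 UMIs in all. The log2 difference of -0.69 for the assembly factors ran from -1.04 without mouse 218 to -0.34 without mouse 216, and with no limit on mitochondrial UMIs it was -0.48 and the groups overlapped. The other 7 sums by complex overlapped. Among single genes, 18.7% of all tested did not overlap between groups. With 3 mice against 2 an exact permutation test cannot go below p = 0.1.

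mt-Co3 measured 235, 350 and 324 CPM after TAT-CRE and 352 and 363 after PBS, and its identical copy Gm28437 had a fold change of opposite sign. Gm28437 measured 1663, 3896 and 5012 CPM after TAT-CRE and 2053 and 1506 after PBS (log2 fold change 0.99, SE 0.35, unadjusted p = 0.0148, edgeR adjusted p = 0.999). The high values were those of mice 208 and 215, and mouse 207 lay between the PBS mice. For mt-Co1 and Gm29216 the log2 fold changes were -0.11 (SE 0.18) and -0.04 (SE 0.18).

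**Figure D4:**
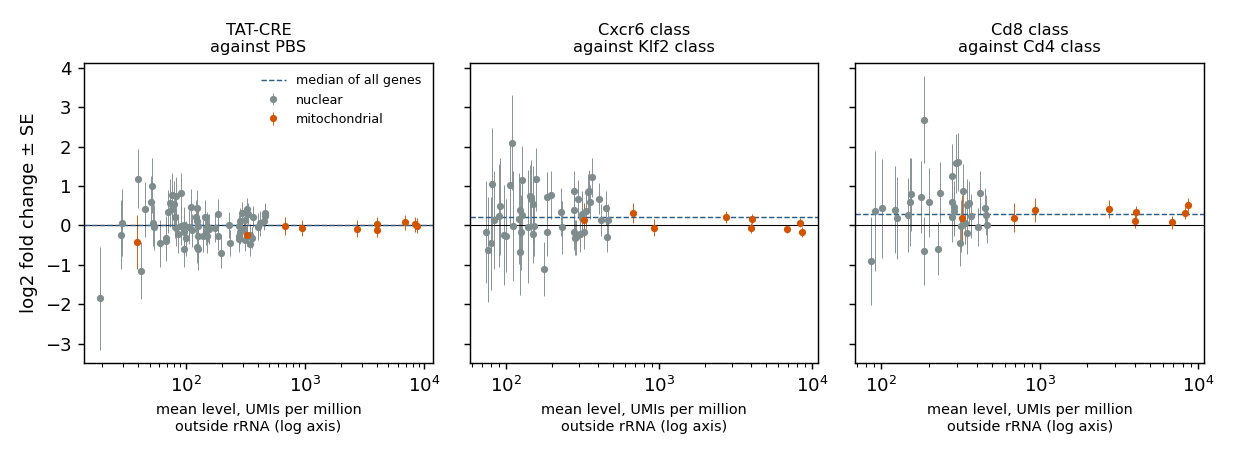
Log2 fold change ± SE of each tested member (y axis) against its mean level in CPM (log x axis) in the 3 comparisons, nuclear members in grey and mitochondrial ones in orange, with the median of all tested genes dashed. No member passed an adjusted p of 0.05, and the error bars widen as the level falls.

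Cells were next split by transcripts of Cxcr6, a chemokine receptor of tissue-resident T cells, and Klf2, a transcription factor of recirculating ones. The 384 cells with a Cxcr6 and no Klf2 UMI (101, 59 and 63 in TAT-CRE mice, 80 and 81 after PBS) form the Cxcr6 class, and the 139 cells with a Klf2 and no Cxcr6 UMI (30, 22, 26, 21 and 40) the Klf2 class. Both classes were present on every plate and were compared within mice. The 4 residency markers other than Cxcr6 (Itgae, Itga1, Cd69 and Rgs1) summed to 851 to 1472 CPM in the Cxcr6 class and 145 to 661 in the Klf2 class. The median depth of the pooled cells was 2395 UMIs in the Klf2 class and 1916.5 in the Cxcr6 class; within mice the Klf2 class was deeper in 207, 208 and 216 and shallower in 215 (1704.5 against 1875) and 218 (2882.5 against 2979). Another 910 cells had neither transcript and 49 had both.

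Mitochondrial transcripts were lower relative to nuclear ones in the Cxcr6 class in 4 of 5 mice. The ratio was 2.17 in the Cxcr6 class against 2.78 in the Klf2 class in mouse 207, 3.09 against 3.73 in mouse 208, and 2.99 against 4.36 in mouse 215. It was 2.63 against 2.97 in mouse 218, and the reverse in mouse 216, at 3.24 against 2.98. The mean log2 difference was -0.25 ± 0.25 (SD, n = 5), no larger than its spread between mice. Thinned to 400 UMIs per cell, the ratio was lower in the Cxcr6 class in all 5 mice, by a mean log2 difference of -0.39 ± 0.38 (SD, n = 5). For all cells with against without a Cxcr6 UMI it was -0.12 ± 0.08, lower in all 5 mice. For all cells without against with a Klf2 UMI it was -0.13 ± 0.34, and higher in 2 of 5 mice.

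The mitochondrial sum carried most of the difference in ratio between the Cxcr6 and Klf2 classes. It averaged 34198 ± 5107 CPM in the Cxcr6 class and 38292 ± 3569 in the Klf2 class (SD, n = 5), lower in 4 of 5 mice, while the nuclear sum averaged 12152 ± 843 and 11573 ± 1223 and was higher in 3 of 5. In the TAT-CRE mice the mean log2 difference of the ratio was -0.39, and after PBS -0.03, which an exact permutation test of 3 against 2 mice cannot separate below p = 0.1.

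mt-Cytb was lower in the Cxcr6 class in each mouse. It measured 5105, 6604 and 6863 CPM in the Cxcr6 class of the TAT-CRE mice and 7006 and 5201 in that of the PBS mice. In the Klf2 class it measured 6351, 8004 and 8572 after TAT-CRE and 7128 and 6307 after PBS. In mouse 216 the classes were nearly level, and in the other 4 mice the Cxcr6 class was lower by more. Thinned to 400 UMIs per cell, mt-Cytb was higher in the Cxcr6 class in 2 of 5 mice (mean log2 difference -0.25), and with no limit on mitochondrial UMIs, at a minimum of 1000 UMIs or among Cd8 cells alone it was higher in 1 of 5. mt-Nd2 was also lower in the Cxcr6 class in 5 of 5 mice, at a mean of 3735 ± 724 against 4420 ± 1125.

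The fit across all genes called no member. With mouse as a block, 60 members were tested and 0 passed an adjusted p of 0.05, against 22 of 2518 genes (0.874%), and DESeq2 called 0 members too. At an unadjusted p under 0.05 there was 1 member, Ndufa6, against 7.78% of all genes. Ndufa6, a complex I subunit, measured 338, 481, 485, 272 and 529 CPM in the Cxcr6 class of mice 207, 208, 215, 216 and 218, and 448, 88.0, 254, 0 and 326 in the Klf2 class. It was higher in 4 of 5 mice (log2 fold change 1.22, SE 0.49, edgeR adjusted p = 0.473).

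The next 4 by p, none called, were Atp5f1 (0.84, SE 0.47), Ndufb10 (2.10, SE 1.21), Ndufa2 (0.88, SE 0.51) and Atp5a1 (0.68, SE 0.40). Members with the same direction in every mouse were 5 of 60 (8.33%), against 8.54% of all genes. Atp5f1 and Ndufb10 were higher in the Cxcr6 class (3.33%, against 4.77% of all genes), and Atp5d, mt-Cytb and mt-Nd2 were lower (5%, against 3.77%).

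In this fit the median gene lay at a log2 fold change of 0.22, the 51 nuclear members at 0.25 and the 9 mitochondrial members at 0.07, so the mitochondrial median lay below that of all genes. Without TMM scaling and ribosomal RNA genes these medians were 0.11, 0.16 and -0.04. mt-Cytb had a fitted log2 fold change of -0.09 (SE 0.11, adjusted p = 0.992), and mt-Nd4 of -0.17 (SE 0.12, adjusted p = 0.868). When all cells with a Cxcr6 UMI were set against all cells without one, mt-Cytb passed the test at -0.35 (edgeR adjusted p = 0.020). When cells without a Klf2 UMI were set against cells with one, its fold change was 0.23 (adjusted p = 0.655). The 910 cells with neither transcript were on opposite sides in these 2 settings, as were the 49 cells with both. Median depth was 1387 UMIs in the 910 cells and 2850 in the 49, against 1916.5 in the Cxcr6 class. The part of depth in these 2 settings was not tested.

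**Figure D5:**
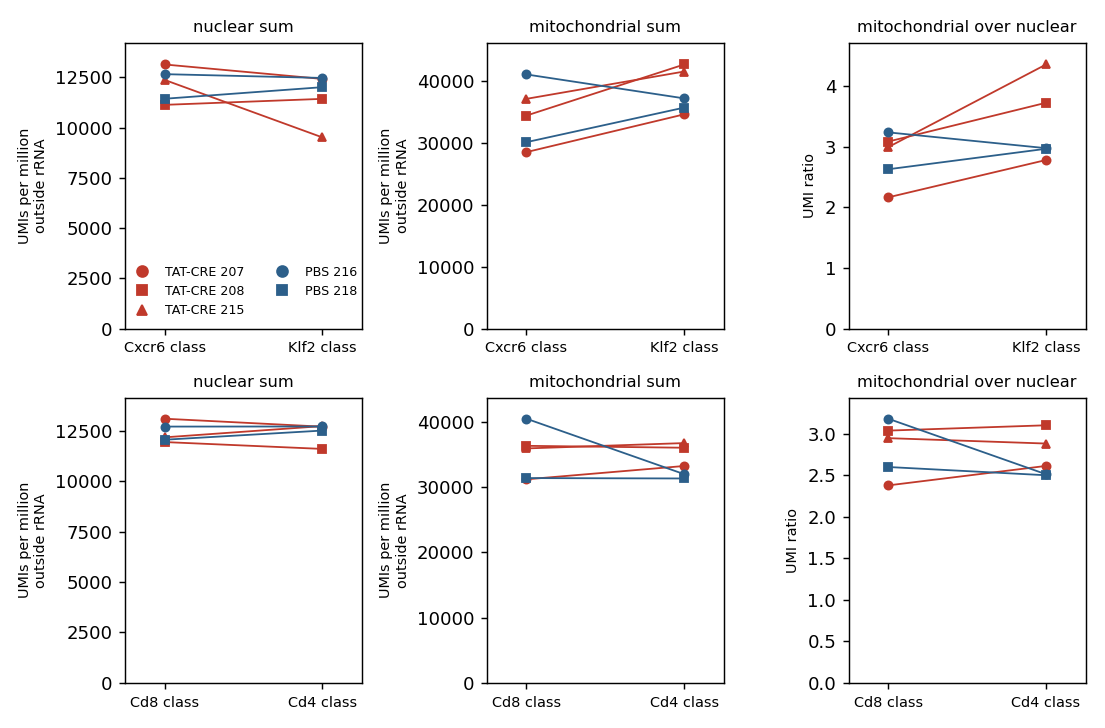
Summed nuclear level, summed mitochondrial level (both in CPM) and the ratio of mitochondrial to nuclear UMIs in the Cxcr6 and Klf2 classes (top) and the Cd8 and Cd4 classes (bottom), a line joining the values of each mouse. The ratio is lower in the Cxcr6 class in 4 of 5 mice, and the nuclear sums of the Cd8 and Cd4 classes lie close together.

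By lineage, 630 cells with a Cd8a or Cd8b1 and no Cd4 UMI (174, 76 and 125 in TAT-CRE mice, 134 and 121 after PBS) form the Cd8 class, and 85 cells with a Cd4 and no Cd8 UMI (22, 19, 23, 13 and 8) the Cd4 class. Another 742 cells had neither, so the classes hold only cells in which the coreceptor was captured. The nuclear sum did not differ between lineages beyond its spread: it averaged 12401 ± 491 CPM in the Cd8 class and 12458 ± 485 in the Cd4 class (SD, n = 5). The mean log2 difference was -0.01 ± 0.05, higher in the Cd8 class in 2 of 5 mice.

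The mitochondrial sum averaged 35025 ± 3876 CPM in the Cd8 class and 33828 ± 2417 in the Cd4 class. The ratio was 2.38, 3.04 and 2.95 in the Cd8 class of the TAT-CRE mice and 3.18 and 2.60 in that of the PBS mice. In the Cd4 class it was 2.61, 3.10 and 2.88 after TAT-CRE and 2.51 and 2.50 after PBS. The mean log2 difference was 0.05 ± 0.18 (SD, n = 5), with the Cd8 class higher in 3 of 5 mice.

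No member was called between lineages at the thresholds used. Of 43 members tested, 0 passed an adjusted p of 0.05 in edgeR, against 10 of 1741 genes (0.574%), and DESeq2 called 0 members. At an unadjusted p under 0.05 there were 5 members (11.6%), against 8.56% of all genes. The smallest p was that of mt-Nd4, with a log2 fold change of 0.53 (SE 0.17, edgeR adjusted p = 0.181).

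mt-Nd4 measured 6650, 10502 and 7421 CPM in the Cd8 class of the TAT-CRE mice and 9712 and 7488 in that of the PBS mice. In the Cd4 class it measured 7500, 7659 and 8468 after TAT-CRE and 6285 and 4537 after PBS. It was higher in the Cd8 class in 3 of 5 mice, mice 208, 216 and 218, and lower in mice 207 and 215. The mean log2 difference in level was 0.29 ± 0.44 (SD, n = 5), no larger than its spread between mice. mt-Nd4 passed the test when mouse 208 was left out (log2 fold change 0.65, adjusted p = 0.0490), with a 20% limit on mitochondrial UMIs (0.75, adjusted p = 0.0053) and without ribosomal RNA genes (0.57, adjusted p = 0.0049). mt-Nd5 also passed without mouse 208. Without that mouse the mean log2 difference in mt-Nd4 level was 0.25 ± 0.50 (SD, n = 4), with the Cd8 class higher in 2 of 4 mice. With no filter on low counts mt-Nd4 (1.06, adjusted p = 3.2e-10), mt-Nd1, mt-Co1, mt-Nd5 and mt-Cytb all passed. At that setting 60 of all genes passed, and the mt-Nd4 fold change was 0.53 with the filter. Why it moved was not tested. Over all settings the fitted log2 fold change of mt-Nd4 ran from 0.25 to 1.06, with adjusted p up to 0.9996.

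Cox8a, a complex IV subunit, was the one member higher in the Cd8 class in each mouse (2.33% of those tested, against 4.94% of all genes), and 0 were lower in each (against 2.07%; 7.01% of all genes kept either direction). It measured 178, 126, 260, 368 and 155 CPM in the Cd8 class of mice 207, 208, 215, 216 and 218. In the Cd4 class it measured 94.1, 0, 35.9, 74.8 and 0, from only 5 UMIs in all (log2 fold change 2.68, SE 1.10, edgeR adjusted p = 0.438). Ndufa3 (1.61, SE 0.74), mt-Nd1 (0.32, SE 0.15) and Atp5c1 (1.58, SE 0.75) followed, with adjusted p of 0.483 to 0.527.

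Scaling moved these fold changes. The median of all genes was 0.30 with TMM and 0.02 with DESeq2 size factors. All 9 mitochondrial members tested had a fold change above 0 with TMM, as had 67% of all genes, and 5 of 9 with DESeq2 size factors. For the 34 nuclear members the counts were 27 and 20. The nuclear median was 0.42 with TMM and 0.15 with DESeq2 size factors, and the mitochondrial median 0.32 and 0.05, both above the median of all genes under either scaling.

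The other genes of the pathway were followed with lists of 70 genes outside the naming rule: complex II, electron carriers, assembly factors, carriers of the inner and outer membrane, mitochondrial gene expression, nuclear regulators and the TCA cycle. Between TAT-CRE and PBS mice 48 were tested, 26 higher (54.2%, against 50.2% of all genes) and 22 lower, of which 0 passed and 3 (6.25%, against 3.77%) had an unadjusted p under 0.05. Between the Cxcr6 and Klf2 classes 23 were tested, 19 higher (82.6%, against 62.5% of all genes) and 4 lower, with 0 called and 3 (13.0%, against 7.78%) at an unadjusted p under 0.05. Between the Cd8 and Cd4 classes 12 were tested, 9 higher (75%, against 67% of all genes) and 3 lower, with 0 called and 0 (against 8.56%) at an unadjusted p under 0.05.

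Complex II, which has no mitochondrially encoded subunit, had levels like those of the middle nuclear members. Sdha, its flavoprotein, measured 161 ± 25.3 CPM (SD, n = 5), Sdhb 138 ± 48.4, Sdhc 101 ± 30.6 and Sdhd 106 ± 40.8. Slc25a4 and Slc25a5, the ADP/ATP carriers that export the product of the chain, measured 258 ± 92.1 and 247 ± 29.8. Tfam, which packages and transcribes mitochondrial DNA, measured 72.0, 146 and 154 CPM after TAT-CRE and 213 and 95.6 after PBS, and the groups overlapped. Nrf1 measured 42.6, 30.8 and 22.9 after TAT-CRE and 103 and 63.7 after PBS (log2 fold change -1.35, edgeR adjusted p = 0.999), lower in each TAT-CRE mouse but not called. Of all genes tested, 9.38% were lower in each TAT-CRE mouse and 9.29% higher. Other listed genes also did not overlap, in both directions. Cycs (log2 fold change 1.47), Atpif1 (0.94), Vdac2 (0.42) and Ucp2 (0.37) were higher in each TAT-CRE mouse, and Uqcc3 (-0.89) was lower. Uqcc2 was lower in each (log2 fold change -1.50). Tufm was higher in each, at 45.3, 65.4 and 49.0 CPM against 16.6 and 6.37 (2.23). Gabpa was also higher in each (0.39), and none of these was called. Ppargc1a, the coactivator of these genes in muscle and brown fat, had 0 UMIs, which allows up to 1.75 CPM.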

How the data were processed

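Single T cells of 5 mice, 1 plate each, were measured by plate-based RNA-seq with UMIs. The deposited files hold raw UMI counts per gene and well. Reads were demultiplexed with bcl2fastq 2.15.0.4 and the build was mm10, per the submitters' processing notes; the sources used here name no aligner or annotation. The number of cells per well came from the deposited metadata, and 0 columns were of samples outside the series; no well name occurred in 2 libraries (0 of 1920 wells).

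Wells with 1 sorted cell, 400 or more UMIs outside ERCC and 30% or less mitochondrial UMIs were kept. The UMI minimum removed 15, 48, 22, 36 and 102 wells and the mitochondrial limit 54, 29, 60, 48 and 4, in mice 207, 208, 215, 216 and 218. Mitochondrial ribosomal RNA made up 88.1% of mitochondrial UMIs, so the limit acted mostly on that RNA. No doublet caller was run, since wells were sorted. Kept cells had 362457 to 839188 UMIs per mouse, of which ribosomal RNA genes took 28.3% to 48.0%. Precision is limited by the number of mice, and intervals and floors cover counting error only; a count of 0 was taken to allow 3 counts.

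Counts were summed per mouse, or per mouse and class, filtered with filterByExpr, scaled by TMM and tested with edgeR 4.0.16 (quasi-likelihood, Benjamini-Hochberg over all genes tested), with mouse as a block for classes. Ribosomal RNA genes stayed in these fits and out of the CPM values. DESeq2 1.42.0 was an alternative. The test was tried on simulated counts: at a log2 change of 2 it recovered 29.9% of changed genes for TAT-CRE against PBS, 23.9% for Cxcr6 against Klf2 and 19.4% for Cd8 against Cd4. For sums of members the values and spread over mice are given without a p, as an exact test cannot go below 0.1 for 3 against 2 mice or 0.0625 for 5 pairs. For TAT-CRE against PBS, p-values measure the spread between mice, which is also that between plates. For the classes, with mouse as a block, they measure the spread left after differences between mice and plates were taken out.

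Members and lists were chosen with earlier results of these data known. Genes named were every mitochondrially encoded member, the 20 nuclear members of highest mean level, members called in a comparison or else the 5 of smallest p, and isoform pairs; members whose groups did not overlap or that kept 1 direction in every mouse, near-copy rows and genes of the other lists were named after their values were seen. Near copies were sought as 30-base matches in the last 300 bases of GENCODE M21 transcripts (GRCm38). Some marker genes are not reported here. Alternatives covered cell filters, thinning, class rules, denominators, scaling, low-count filters and leaving out each mouse.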

Additional observations from a re-analysis of the deposited data

Results flagged for a closer look

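For mt-Cytb in the Cxcr6 class against the Klf2 class, mouse PBS 216 stood apart from the other 4 mice with a log2 difference of -0.025. For the mitochondrial sum in the Cd8 class against the Cd4 class, mouse PBS 216 stood apart with 0.34. Chance marks about 1 in 20 such groups.

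Rows of near copies outside the members held counts. Gm28437 had 4496 UMIs and is identical to mt-Co3 over the aligned bases, and Gm29216 had 6705 and is identical to mt-Co1 beyond its first 13 bases. Gm13339 had 728 UMIs and holds 41.7% of the 30-base words in the last 300 bases of mt-Nd2, and Gm13341 had 148 and holds 29.2% of those of mt-Co2. Gm10925, Gm28661, Gm28438 and Gm10222, annotated as copies of mt-Atp6, mt-Co2, mt-Nd3 and mt-Nd4l and nearly identical to them at the end, had 0 UMIs.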

How the results depend on the processing

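No paired analysis was possible because the TAT-CRE and PBS mice share no replicate number. For the class comparisons mouse was a block; without that replicate block 0 members were called in either, and 5 of all genes in place of 22 for Cxcr6 against Klf2. The count of members called stayed at 0 for TAT-CRE against PBS under all alternatives; for Cxcr6 against Klf2 it became 1 (cells with against without a Cxcr6 UMI), and for Cd8 against Cd4 1 (20% mitochondrial limit), 5 (no filter on low counts), 1 (without ribosomal RNA genes) and 0 to 2 when a mouse was left out. Of all genes, DESeq2 called 1 for TAT-CRE against PBS and no filter gave 8. For Cxcr6 against Klf2, thinning called 6 in place of 22, cells with against without a Cxcr6 UMI 6, the 20% limit 13, only Cd8 cells 4, and leaving out a mouse 8 to 21. For Cd8 against Cd4, DESeq2 called 6 in place of 10, thinning 4, the 20% limit 18, no filter 60, no ribosomal RNA genes 21, and leaving out a mouse 5 to 24.

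Differences of sums near 0 changed sign. For TAT-CRE against PBS the nuclear log2 difference was 0.059 with ribosomal RNA in the denominator and -0.077 to 0.017 without 1 mouse, the mitochondrial one -0.027 at the 20% limit and -0.18 to 0.19 without 1 mouse, and the ratio -0.10 to 0.17. For Cxcr6 against Klf2 the nuclear difference was -0.021 for cells with against without a Cxcr6 UMI and -0.0016 to 0.11 without 1 mouse. For Cd8 against Cd4 the nuclear difference was 0.016 at the 20% limit, 0.015 at a minimum of 1000 UMIs, 0.13 thinned and -0.019 to 0.0080 without 1 mouse. The mitochondrial one was -0.027 to 0.080 and the ratio -0.019 to 0.10 without 1 mouse, and the ratio -0.084 thinned. The ratio for Cxcr6 against Klf2 stayed below 0 throughout, from -0.42 to -0.12, and -0.34 to -0.17 without 1 mouse. mt-Cytb there had a level difference of 0.0037 for cells without against with a Klf2 UMI, and fitted values of 0.23 for those cells and 0.10 with no filter; Atp5a1 had -0.14 for cells with against without a Cxcr6 UMI. The cause was not tested. Adding near-copy rows, chosen after seeing the data, changed no sign of the mitochondrial sum or ratio, and moved the levels of mt-Co1, mt-Co2, mt-Co3 and the complex IV sum by more than 1 SD (values in the report).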

Other observations

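The wells that the 30% limit removed had more mitochondrial members per nuclear member than the kept cells, with ratios of 4.45, 6.21, 5.87, 5.41 and 10 in mice 207, 208, 215, 216 and 218 (from 36 nuclear UMIs in the last). Their nuclear level ran from 8800 to 13943 CPM.

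Within a mouse, the shallower and deeper cells of the kept set also differed in this ratio in part of the mice. It was 3.74 in the shallower and 2.98 in the deeper cells of mouse 215, 3.61 and 3.03 in mouse 216, and 3.45 and 3.16 in mouse 208. In mice 207 and 218 the values were close, at 2.50 and 2.54 and at 2.69 and 2.62. The part of depth in the comparisons was not tested beyond the thinned values.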
